A study of Homo sapiens with 32 samples.

Results

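The UGT2 glucuronosyltransferase cluster is a run of 10 related genes on human chromosome 4. The members were the listed genes of that cluster, UGT2B4, UGT2B7, UGT2B10, UGT2B11, UGT2B15, UGT2B17, UGT2B28, UGT2A1, UGT2A2 and UGT2A3, and all 10 were found among the 19974 protein-coding genes of the RefSeq gene table. They were taken by name and not by their values. With 2.5 kb added on each side, the cluster ran from 68534673 to 69655747 on chromosome 4 of GRCh38 (hg38), a length of 1121 kb. H3K27me3, the histone mark laid down by the methyltransferase EZH2 in repressed chromatin, was profiled by ChIPmentation in MDA-MB-231, a widely used line of triple-negative breast cancer. Cells were treated for 24 h with both inhibitors together (combo), with the EZH2 inhibitor alone (EPZ, written EP7 in the sample titles) or with the p38 MAP kinase inhibitor alone (P38i), or were controls. Each of the 4 groups had 4 H3K27me3 libraries, and the 16 IgG libraries were not analysed here. All groups are of the same cell line, and no dose is stated in the sources used here. The labels do not say that replicates were separate cultures, so the p-values below measure the spread between these libraries, which may be technical.

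UGT2 enzymes sit in the membrane of the endoplasmic reticulum and join glucuronic acid to small fat-soluble molecules, which makes them easier to excrete. Their substrates include steroid hormones, bile acids, odorants and many drugs, and their expression is known mainly from liver, gut, kidney, steroid-responsive tissues and the nasal epithelium. In breast and prostate cells the enzymes are studied because they inactivate oestrogens and androgens.

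The value for each gene is the percent of its span, with 2.5 kb on each side, that lay under islands, the broad enriched regions called by the authors. Island lists hold positions only, so read depth is unknown and coverage says what was called and not how much of the mark was present. Libraries held 53290 to 85194 islands over 474 to 674 Mb, or 15.6 to 22.3% of the genome. The 8 libraries with the EZH2 inhibitor covered 18.03% ± 1.67 of the genome, against 19.97% ± 2.21 in the other 8 (SD, n = 8 each). Of the markers of the cell line, VIM, CD44, AXL, ZEB1, KRT18 and FOSL1 had no island in any library. Of 7 luminal breast markers, PGR averaged 95.4% covered, FOXA1 56.6% and ESR1 10.2%, and GATA3, CDH1, EPCAM and KRT19 stood at 0. Of 5 hepatocyte markers, HNF4A averaged 68.3%, TTR 41.8% and ALB 39.6%, while APOA1 and SERPINA1 had no island.

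The cluster carried scattered, narrow islands rather than a continuous domain, and it was sparser in the libraries with the EZH2 inhibitor. Islands covered 5.28, 7.33, 8.08 and 7.01% of the cluster in the combo libraries and 5.16, 2.73, 4.89 and 9.22% in the EPZ libraries. They covered 17.4, 12.1, 13.2 and 8.78% in the P38i libraries and 17.8, 20.5, 18.5 and 7.01% in the control libraries. Control replicate 4 lay within the range of the libraries with the EZH2 inhibitor, and P38i replicate 4 lay below EPZ replicate 4. The libraries with and without the EZH2 inhibitor therefore overlapped. Group means were 6.93% ± 1.19 in combo, 5.50% ± 2.71 in EPZ and 12.9% ± 3.57 in P38i, against 16.0% ± 6.08 in control (SD, n = 4 each). The number of islands in the cluster was 19.0 ± 2.00 in combo, 16.2 ± 6.13 in EPZ and 33.8 ± 7.14 in P38i, against 35.0 ± 7.70 in control, and the 8 libraries with the EZH2 inhibitor held 10 to 22 islands against 25 to 42 in the 8 without it. Median island width within the cluster was 3.60 ± 0.627 kb in combo, 3.35 ± 1.08 kb in EPZ and 3.98 ± 1.36 kb in P38i, against 4.33 ± 1.17 kb in control. Each difference from control was smaller than the SD in control. The widest island of a library averaged 9.35 ± 2.62 kb in combo, 8.15 ± 3.03 kb in EPZ and 10.55 ± 2.49 kb in P38i, against 15.35 ± 5.96 kb in control. The widest single island spanned 20.6 kb in control replicate 2, from 68708001 to 68728600.

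**Figure D1:**
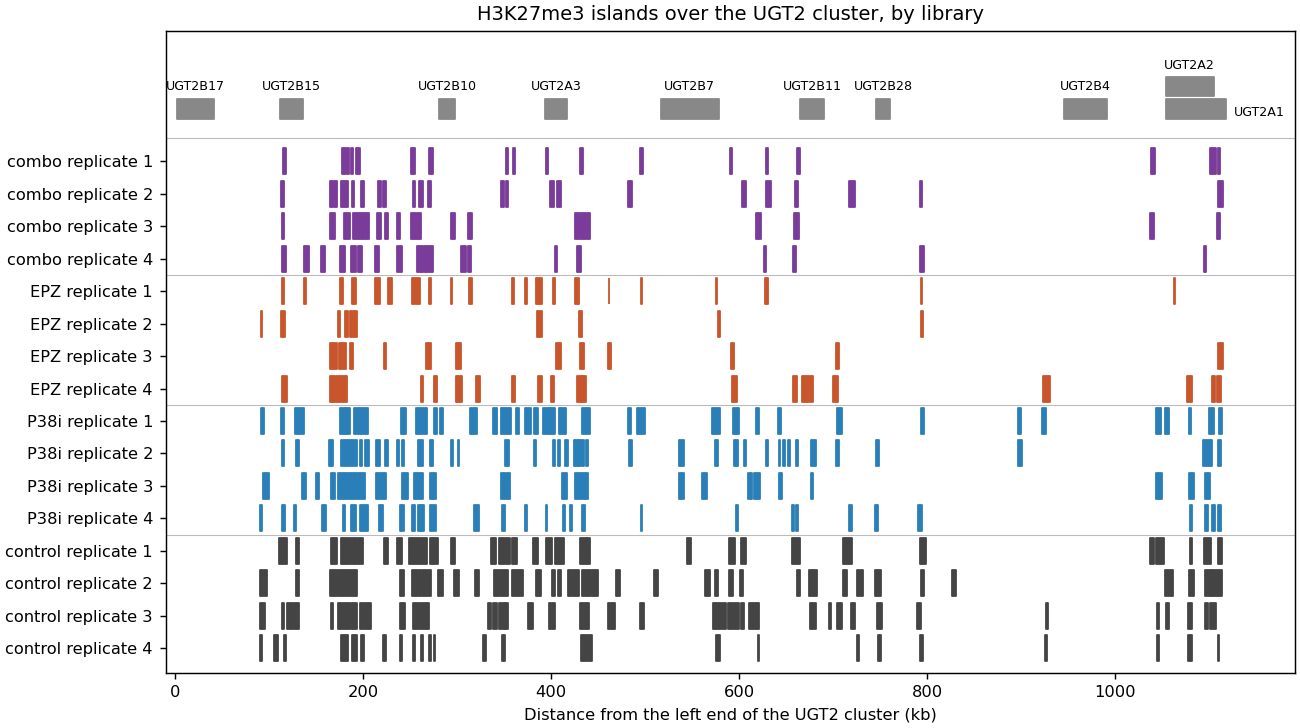
Each row is 1 library and each block 1 island, placed by distance in kb from the left end of the UGT2 cluster, with the 10 gene spans in grey above. Blocks are absent over UGT2B17 and UGT2B4 in all 16 rows, crowd between UGT2B15 and UGT2B10, and number 10 to 22 in the combo and EPZ rows and 25 to 42 in the P38i and control rows.

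Set against control, cluster coverage differed by -9.04 percentage points in combo, -10.5 in EPZ and -3.10 in P38i. Combo differed from EPZ by 1.43 percentage points and from P38i by -5.95, and the 8 libraries with the EZH2 inhibitor averaged 6.21% ± 2.08 against 14.4% ± 4.90 in the 8 without it. These cluster values are a description with no test. The cluster was covered less than the genome in 15 of 16 libraries, the exception being control replicate 2, with a ratio of cluster to genome coverage of 0.171 to 1.00. That ratio averaged 0.340 ± 0.0960 with the EZH2 inhibitor and 0.712 ± 0.212 in the libraries without (SD, n = 8 each). Over the 16 libraries, cluster coverage and the total length covered had a Pearson r of 0.74, where both values come from the same island list. When every list was shortened to the same total length by keeping its widest islands, the difference from control was -2.80 points in combo and -2.71 in EPZ. This setting drops the narrowest islands of the longer lists, and islands in the cluster were narrow. Control replicate 1 went from 17.8 to 1.75%. EPZ replicate 1, the shortest list, stayed at 5.16%, and control replicate 4 went from 7.01 to 6.81%. The setting therefore cannot separate genome coverage from the loss of narrow islands, and the part of genome coverage in the difference was not tested.

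**Figure D2:**
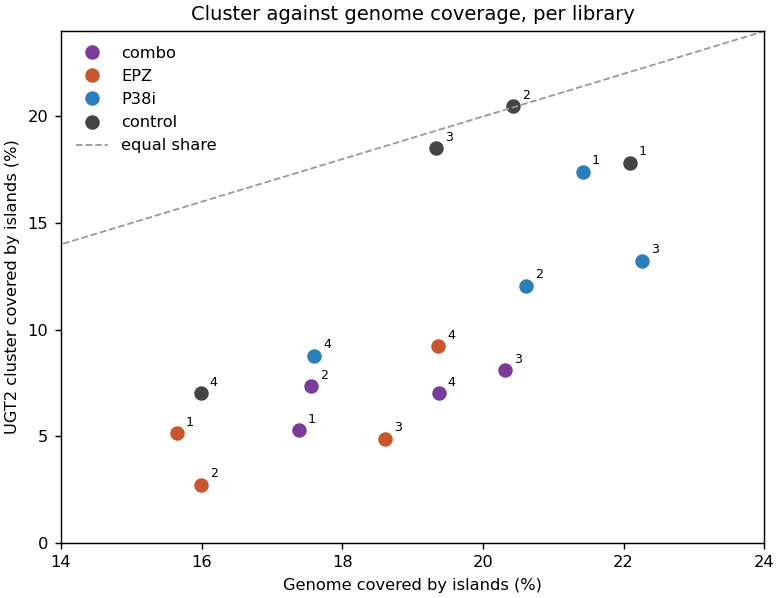
Each point is 1 library, with the percent of the genome under islands on the horizontal axis, the percent of the UGT2 cluster on the vertical axis, replicate numbers beside the points and a dashed line where both are equal. Of the 16 libraries, control replicate 2 alone lies on the line, and control replicate 4 lies among the libraries with the EZH2 inhibitor.

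Islands of any library reached 556.2 kb of the cluster, which is 49.6% of its length. Long stretches were empty in all 16 libraries. The first ran for 115.6 kb, from 68509401 to 68625000, and held the whole of UGT2B17 (68537173 to 68576322), an enzyme that glucuronidates testosterone and dihydrotestosterone and whose gene is missing from many human genomes. The next ran for 106 kb, from 69465401 to 69571400, and held the whole of UGT2B4 (69480165 to 69526014), which acts on bile acids and catechol oestrogens. Another, of 65.8 kb from 69365801 to 69431600, held the pseudogenes UGT2B25P and UGT2B24P. Many genes of the cluster are near copies of each other, so reads may have been split between them or left unplaced, and an island list cannot tell unmarked chromatin from absent or unplaceable DNA. Whether either applies to the empty stretches was not tested.

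Of the gene spans and the stretches between them, that from UGT2B15 to UGT2B10 held the largest share of the covered length. It spans 145 kb, or 13.0% of the cluster, and coverage there was 26.7% ± 8.97 in combo, 15.1% ± 4.77 in EPZ and 34.3% ± 8.70 in P38i, against 34.2% ± 10.7 in control (SD, n = 4 each). It held 49.0% ± 11.1 of the covered length of the cluster in combo, 38.6% ± 11.6 in EPZ and 36.1% ± 10.6 in P38i, against 29.3% ± 6.30 in control. The window shared most widely lay here, at 68715401 to 68715800, and was under an island in 15 of 16 libraries, EPZ replicate 1 being the exception. The length under islands in all 4 libraries of a group was 2.60 kb in combo, 0.20 kb in EPZ and 14.4 kb in P38i, against 28.0 kb in control, so island positions varied between replicates in every group. Mean coverage of gene spans was below that of the stretches between genes, at 3.79% against 8.20% in combo, 4.23% against 6.03% in EPZ, 12.0% against 13.3% in P38i and 14.6% against 16.6% in control. The gap exceeded the SD of both measures over the 4 libraries in combo alone (1.25 and 1.91). The gene spans, 314.5 kb in all, include UGT2B17 (39.15 kb) and UGT2B4 (45.85 kb). Both were at 0 in all 16 libraries and lower the mean of the gene spans. The comparison was not made without them, so the order of the means is given only with them included.

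**Figure D3:**
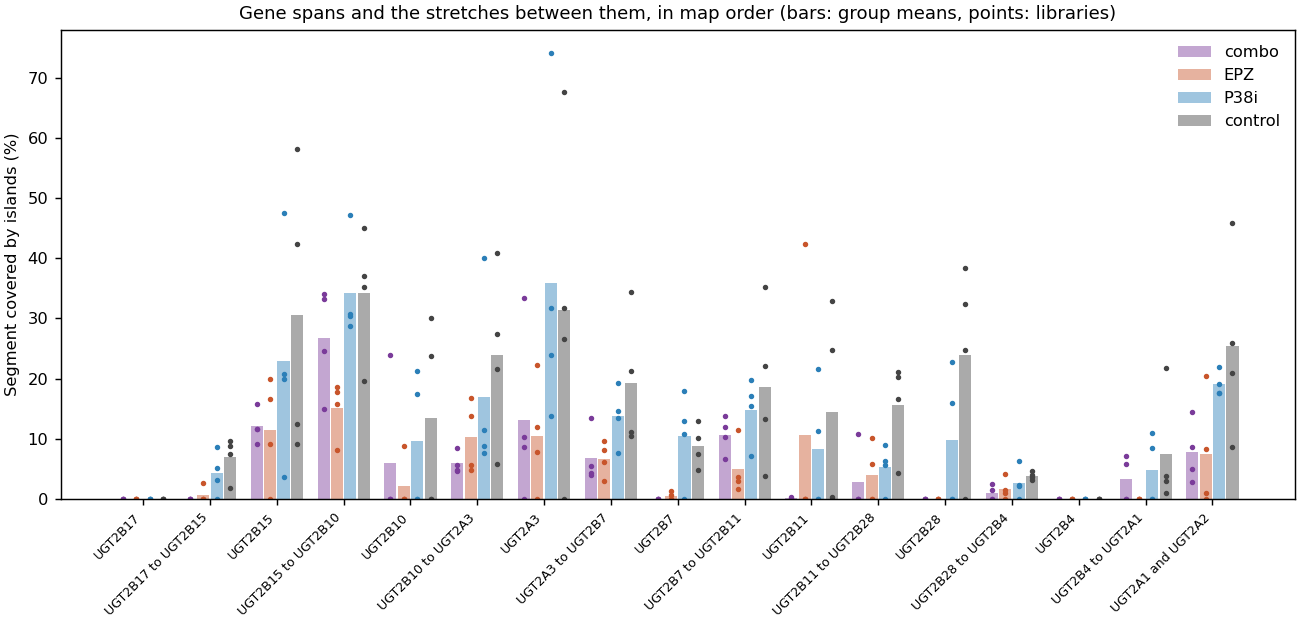
Bars give the mean percent covered of each gene span and of each stretch between genes, in map order, for combo, EPZ, P38i and control, and points are the 4 libraries. The stretch from UGT2B15 to UGT2B10 is high in each group, at 15.1 to 34.3%, and UGT2B17 and UGT2B4 are at 0.

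In at least 1 library, islands reached the starts of 6 of the 7 members that could be matched. RefSeq promoter entries (GRCh38.p14) matched 7 of the 10 members, and UGT2B17, UGT2B28 and UGT2B4 had none. The starts in the entries of UGT2B7 (69096474) and UGT2B11 (69214748) lie inside the gene spans used here and not at their ends. In a window from 250 bases before the start to 50 after it, UGT2A2 had an island in 6 libraries, combo replicate 1, EPZ replicate 4, P38i replicates 1 and 4 and control replicates 2 and 3. UGT2B11 had an island there in 3 libraries, UGT2B15 in 2, and UGT2B10, UGT2A3 and UGT2B7 in 1 each. UGT2A1, which shares its later exons with UGT2A2 but starts farther out, had no island at its start in any library. That makes 14 of 112 member windows over the 16 libraries (12.5%), of which UGT2A2 gave 6. In a given library 9.44 to 13.98% of the 34961 windows of the same kind held an island. The members' share pooled over the 16 libraries lay within that range of single libraries. Their shares in single libraries, each of only 7 windows, were not compared with it. Taken over all 16 libraries, 80.1% of the 34961 windows had an island in no library, against 1 of the 7 members. Whether the members differ from gene starts at large in this was not tested. The 250 bases before the start of UGT2A2 and UGT2A1 are shown because these starts differ in islands within overlapping genes, and those of UGT2B11 and UGT2B10 because they are 90.2% identical over 254 aligned columns. All are printed 5′ to 3′ on the strand of the gene, at chr4:69639643-69639892 (minus) for UGT2A2, chr4:69653248-69653497 (minus) for UGT2A1, chr4:69214749-69214998 (minus) for UGT2B11 and chr4:68815744-68815993 (plus) for UGT2B10. Capitals mark matches, on either strand, to the TATA box letters TATAAA or the HNF1 letters GTTAAT, HNF1 being a liver and gut transcription factor. No match overlapped another.
UGT2A2: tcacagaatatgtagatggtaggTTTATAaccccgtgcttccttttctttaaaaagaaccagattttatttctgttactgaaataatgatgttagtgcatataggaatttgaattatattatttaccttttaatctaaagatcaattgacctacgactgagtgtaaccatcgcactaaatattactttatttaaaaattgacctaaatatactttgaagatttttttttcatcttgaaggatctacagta
UGT2A1: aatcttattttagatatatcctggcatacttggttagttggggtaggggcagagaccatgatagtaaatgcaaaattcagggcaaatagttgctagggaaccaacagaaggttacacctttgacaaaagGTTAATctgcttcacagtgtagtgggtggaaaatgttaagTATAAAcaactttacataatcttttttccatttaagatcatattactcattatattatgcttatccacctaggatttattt
UGT2B11: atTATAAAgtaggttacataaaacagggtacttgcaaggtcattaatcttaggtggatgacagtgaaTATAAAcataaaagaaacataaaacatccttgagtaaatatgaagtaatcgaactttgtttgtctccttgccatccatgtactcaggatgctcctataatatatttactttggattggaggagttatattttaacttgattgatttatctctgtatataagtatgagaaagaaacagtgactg
UGT2B10: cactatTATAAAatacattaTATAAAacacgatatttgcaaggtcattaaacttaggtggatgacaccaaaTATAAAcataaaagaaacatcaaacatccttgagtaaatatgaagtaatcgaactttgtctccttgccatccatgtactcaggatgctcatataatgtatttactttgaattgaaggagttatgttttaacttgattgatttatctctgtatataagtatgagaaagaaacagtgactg

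Letters TATAAA were present in 4 of the 7 member promoters and in 10.7% of all 34961 promoters. Letters GTTAAT were in 1 of 7, that of UGT2A1, and in 6.23% of all. The FOXA letters TGTTTAC were also in 1 of 7, that of UGT2B15, and in 2.98% of all. G and C made up 28.0 to 34.0% of the 7 member promoters, against a median of 58.4% over all 34961. A match is a description of the letters and not a binding site.

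The order of mean coverage over the 16 libraries was UGT2A3 at 19.6%, UGT2B15 at 17.4%, UGT2A1 at 14.01%, UGT2A2 at 12.7%, UGT2B11 at 8.77%, UGT2B10 at 8.11%, UGT2B28 at 6.96% and UGT2B7 at 5.20%, with UGT2B17 and UGT2B4 at 0. Gaps between neighbours from UGT2A3 to UGT2B7 were smaller than the SD of either gene over the 8 libraries without the EZH2 inhibitor. The 8 members above 0 passed the filter for testing, a mean coverage of 5 to 95%. With the EZH2 inhibitor the means of UGT2B7, UGT2B28, UGT2A2 and UGT2B10 lay below 5%, so these 4 passed only through the libraries without it and a lower mean with it was built in. Counts and medians over the 8 are therefore a description.

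UGT2A1 (69588417 to 69653247) and UGT2A2 (69588417 to 69639642) are forms with different first exons at the right end of the cluster, known for odorant and steroid glucuronidation in nasal epithelium and other surfaces. UGT2A2 coverage was 11.7, 0, 0 and 3.20% in combo and 1.07, 0, 0 and 16.0% in EPZ, against 21.0, 16.0, 20.3 and 16.0% in P38i and 17.6, 43.3, 29.9 and 6.76% in control. UGT2A1 coverage was 13.5, 8.02, 4.58 and 2.58% in combo and 0.859, 0, 7.73 and 18.9% in EPZ, against 21.2, 17.8, 16.3 and 16.3% in P38i and 20.7, 43.5, 24.1 and 8.02% in control. All 8 libraries without the EZH2 inhibitor had islands over both genes, and 7 libraries with it had islands over UGT2A1 and 4 over UGT2A2. EPZ replicate 4 and control replicate 4 made the groups overlap. The whole span of UGT2A2 lies within that of UGT2A1, so their values are not independent.

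UGT2A3 (68928463 to 68951804), a liver and gut enzyme reported to act on bile acids, was the most covered member. Its coverage was 7.06, 27.5, 0 and 8.47% in combo and 6.35, 0, 18.3 and 9.88% in EPZ, against 69.9, 28.2, 19.8 and 11.3% in P38i and 55.7, 30.0, 21.9 and 0% in control. The highest values were those of P38i replicate 1 and control replicate 1, and every group held a library at or below 11.3%.

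UGT2B7 (69051375 to 69112987), the enzyme that glucuronidates morphine and many other drugs and steroids, had no island in any combo library. Its coverage was 1.201, 2.70, 0 and 0% in EPZ, against 12.3, 12.0, 16.5 and 0% in P38i and 6.91, 12.0, 12.3 and 7.21% in control. P38i replicate 4, at 0, was the library without the EZH2 inhibitor that overlapped those with it.

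UGT2B28 (69280475 to 69295050), which acts on androgens and is also missing from some human genomes, was at 0 in all 8 combo and EPZ libraries. It was at 0, 18.4, 0 and 15.3% in P38i and at 0, 30.6, 28.6 and 18.4% in control. Of the 8 libraries without the EZH2 inhibitor, 3 were also at 0.

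UGT2B15 (68646597 to 68670652), an enzyme that inactivates dihydrotestosterone, had islands in 15 of 16 libraries. Its coverage was 9.64, 9.64, 7.57 and 16.4% in combo and 11.5, 13.8, 0 and 16.5% in EPZ, against 43.4, 16.5, 11.5 and 17.2% in P38i and 39.2, 10.3, 48.2 and 7.57% in control. Values above 17.2% came from P38i replicate 1 and control replicates 1 and 3, and the other libraries of all groups shared a range.

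UGT2B10 (68815994 to 68832023), which glucuronidates nicotine and other amines, was at 0, 0, 19.97 and 0% in combo and at 6.66, 0, 2.49 and 5.85% in EPZ, against 17.6, 13.3, 0 and 0% in P38i and 22.4, 41.5, 0 and 0% in control. UGT2B11 (69199951 to 69224984), a close relative with few known substrates, was at 8.49, 0, 3.16 and 0% in combo and at 0, 0, 0 and 35.3% in EPZ, against 0, 19.1, 9.32 and 0% in P38i and 8.49, 35.8, 20.6 and 0% in control. Both genes had islands in 8 of 16 libraries, and each group mixed libraries at 0 with covered ones.

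**Figure D4:**
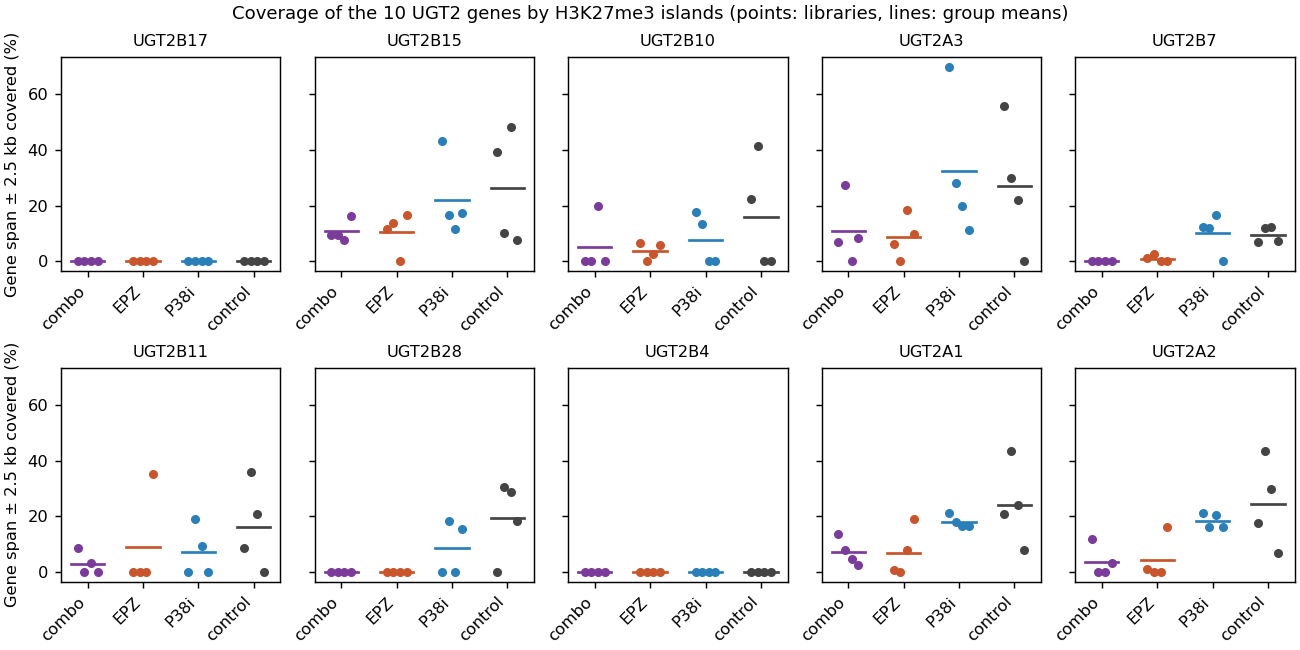
Each panel is 1 UGT2 gene, points are the 16 libraries by group, lines are group means, and the vertical axis is the percent of the gene span with 2.5 kb on each side under islands. UGT2B7 and UGT2B28 are at or near 0 in combo and EPZ. In every panel the libraries with and without the EZH2 inhibitor overlap, but not every pair of groups does.

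The effect of EZH2 inhibition was asked by setting the 8 combo and EPZ libraries against the 8 P38i and control libraries in 1 limma fit over the 4105 genes that passed the filter. Of the 8 members tested, UGT2B7, UGT2A2, UGT2B28 and UGT2A1 were lower with the inhibitor at a limma adjusted p under 0.05 (Benjamini-Hochberg). At that threshold 15.6% of all tested genes were called lower and 0.877% higher. UGT2B7, UGT2A2 and UGT2B28 passed the filter only through the libraries without the inhibitor, so the direction of their differences was built in and the count of 4 is not read against that share. With every gene fitted that was not at 0% or 100% in all libraries (6346 genes, of which 10.1% passed), the limma adjusted p was 0.00939 for UGT2B7, 0.0264 for UGT2A2 and 0.0457 for UGT2B28, and UGT2A1 did not pass (limma adjusted p = 0.0557). The median difference over the 8, also only a description, was -13.8 percentage points. That over all tested genes was -4.84, with 78.0% of them lower. UGT2B7 averaged 0.488% ± 0.988 under the inhibitor and 9.91% ± 5.05 in the libraries without (SD, n = 8 each), a difference of -9.42 points (SE 2.01, limma adjusted p = 0.00752). UGT2A2 averaged 4.00% ± 6.29 with the inhibitor and 21.3% ± 10.95 without it, a difference of -17.3 points (SE 4.42, limma adjusted p = 0.0175). UGT2A1 averaged 7.02% ± 6.51 with the inhibitor and 21.0% ± 10.3 without it, a difference of -13.98 points (SE 4.27, limma adjusted p = 0.0382). UGT2B28 averaged 0% with the inhibitor and 13.9% ± 12.6 without it, a difference of -13.9 points (SE 4.02, limma adjusted p = 0.0302). Its spread was 0 in 8 libraries and is shared over the groups in the fit, so this p-value may be too low, and so may that of UGT2B7, with no island in combo.

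The other 4 tested members did not pass. UGT2A3 averaged 9.70% ± 9.26 with the inhibitor and 29.6% ± 22.9 without it, a difference of -19.9 points (95% interval -38.4 to -1.34, limma adjusted p = 0.129). UGT2B15 averaged 10.6% ± 5.38 with the inhibitor and 24.2% ± 16.5 without it, with a 95% interval of -26.8 to -0.435 points (limma adjusted p = 0.143). The intervals were -19.6 to 4.59 points for UGT2B10 and -18.5 to 6.85 points for UGT2B11 (limma adjusted p = 0.380 and 0.527). UGT2A3 had the largest mean difference of the 8 and the widest interval.

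UGT2A2 was called with each of the 16 libraries left out in turn. UGT2B7 was called in the 11 of these fits that tested it, and its mean fell below the filter without P38i replicate 1, 2 or 3 or control replicate 2 or 3. UGT2B28 lost its call without EPZ replicate 1 or 2, P38i replicate 2, combo replicate 1 or control replicate 2 or 3, and UGT2A1 kept its call in 4 of the 16 fits, those without EPZ replicate 4, P38i replicate 4, combo replicate 1 or control replicate 4. The number called was 2 without EPZ replicate 1 or 2 or P38i replicate 1 or 3, and 1 without P38i replicate 2 or control replicate 2 or 3. Without control replicate 4, UGT2A3 was called as well, which made 5. With the covered length of each library as a covariate, UGT2B7 and UGT2B28 passed and UGT2A1 and UGT2A2 did not, and UGT2A1 also lost its call with replicate number as a block (3 calls). Lists of equal covered length left 2 members to test and 0 calls, a flank of 10 kb or islands of at least 2 kb gave 2 calls, and so did the libraries covering at least 500 Mb, a choice made after seeing the data.

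**Figure D5:**
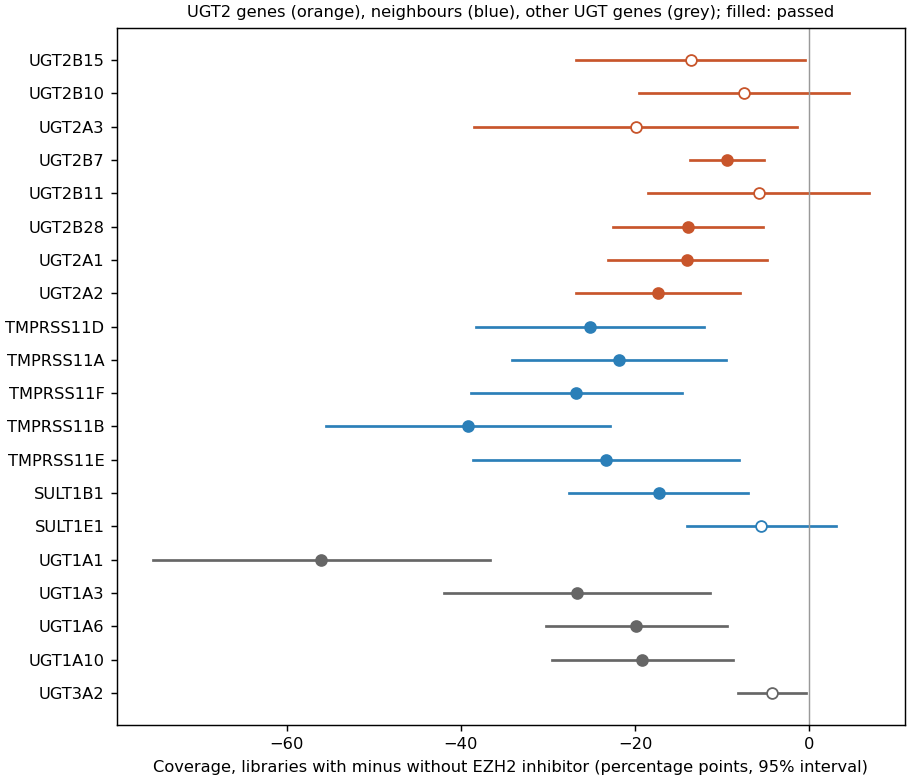
Points are the difference in coverage, in percentage points, between the 8 libraries with the EZH2 inhibitor and the 8 without it, bars are 95% intervals, and filled points passed at an adjusted p under 0.05. The 8 UGT2 genes tested lie left of 0, as do the neighbours and other UGT genes shown, and UGT1A1 has the largest difference shown at -56.0.

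No member passed in a comparison of single treatments. EPZ against control called 0 of 8 by limma, where 3.17% of all tested genes passed. Of the 4105 tested genes 857 had an unadjusted p under 0.05, and so did 4 of the 8 members. The lowest adjusted p was 0.0724, for UGT2B28, with a difference of -19.4 points (95% interval -31.6 to -7.25), and the median over the 8 was -16.5 points against -4.42 over all tested genes. Single libraries decided this count too, since UGT2B7 passed without P38i replicate 4 (limma adjusted p = 0.0219), UGT2B28 without control replicate 1 (limma adjusted p = 0.0183), UGT2A2 without EPZ replicate 4, and UGT2A1 and UGT2A2 without control replicate 4. Combo against control called 0 of 8 by limma, where 1.68% of all tested genes passed. Of the 4105 tested genes 759 had an unadjusted p under 0.05, and so did 4 of the 8 members. The lowest adjusted p was 0.0904, again for UGT2B28, and the median over the 8 was -15.84 points against -1.05 over all tested genes. Here too UGT2B7 passed without P38i replicate 4, UGT2B28 without control replicate 1 or with covered length as a covariate, and UGT2A1 and UGT2A2 without control replicate 4 or in the libraries covering at least 500 Mb. EPZ and combo were set against the same control libraries, so their values are not independent. UGT2B7, UGT2B28, UGT2A2 and UGT2B10 passed the filter only through the libraries without the EZH2 inhibitor. The span of UGT2A2 lies within that of UGT2A1. Counts and medians over the 8 are therefore a description, not read against those of all tested genes.

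P38i against control asked about the p38 inhibitor alone. It called 0 of 8 members by limma, where 0.292% of all tested genes passed. Of the 4105 tested genes 416 had an unadjusted p under 0.05, and no member did. The median over the 8 was -6.12 points, against 2.90 over all tested genes, and 95% intervals reached from -25.3 to 8.84 points for UGT2B10 and from -5.46 to 6.66 points for UGT2B7. Combo against P38i called 0 of 8 by limma, where 1.92% of all tested genes passed. Of the 4105 tested genes 830 had an unadjusted p under 0.05, and so did 2 of the 8 members. These 2, UGT2B7 and UGT2A2, passed the filter only through the libraries without the EZH2 inhibitor, so the count is a description. UGT2B7 had the lowest adjusted p, 0.0813, with a difference of -10.2 points, and it passed when P38i replicate 4 was left out (limma adjusted p = 0.00342). Combo against EPZ called 0 of 8 by limma, where 0% of all tested genes passed, and the lowest adjusted p of a member was 0.916. Of the 4105 tested genes 224 had an unadjusted p under 0.05, and no member did. The interaction of the inhibitors, combo minus EPZ minus P38i plus control, called 0 of 8 by limma, where 0.0487% of all tested genes passed. Of the 4105 tested genes 141 had an unadjusted p under 0.05, and no member did. Intervals of the interaction were wide, from -6.22 to 28.2 points for UGT2B28, so a sizeable interaction was not detectable at this spread.

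The difference was also looked at in bins of 10 kb along the cluster, which did not locate it. Of 113 bins, 36 held no island in any library and 60 had a mean coverage that allowed a test, among 91045 bins tested in the genome. With the EZH2 inhibitor against without it, 2 of the 60 were called, both lower, where 1.05% of all tested bins were called lower and 0.0912% higher. The first, 68880001 to 68890000, lies between UGT2B10 and UGT2A3. It was covered 18, 54, 0 and 0% in combo and 0% in all 4 EPZ libraries, against 84, 34, 70 and 34% in P38i and 92, 86, 76 and 22% in control. The difference was -53.2 points (SE 11.9, limma adjusted p = 0.0331), and combo replicate 2 and control replicate 4 made the groups overlap. The other, 69630001 to 69640000, holds the start of UGT2A2 printed above. It was covered 46, 0, 0 and 10% in combo and 0, 0, 0 and 24% in EPZ, against 46, 78, 56 and 56% in P38i and 60, 86, 74 and 0% in control. The difference was -47.0 points (SE 11.7, limma adjusted p = 0.0498), close to the threshold. Both calls depended on single libraries. Leaving out EPZ replicate 1 or 2, P38i replicate 1 or 3, combo replicate 4 or control replicate 2 or 3 gave 0 calls. Leaving out EPZ replicate 3, P38i replicate 2, combo replicate 1 or 2 or control replicate 1 gave 1 call. Leaving out EPZ replicate 4, P38i replicate 4 or control replicate 4 gave 4, 3 and 5.

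In the other comparisons 0 of the 60 bins were called by limma. The share of all tested bins called was 0.0033% for EPZ against control, 0.011% for combo against control, 0% for P38i against control, 0.0011% for combo against EPZ, 0.0033% for combo against P38i and 0% for the interaction. Unadjusted p-values under 0.05 numbered 16, 18, 5, 2, 4 and 0 in the same order of comparisons. Without control replicate 4, 2 bins were called in EPZ against control.

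Other enzymes of the same chemistry carried islands too. Of 12 other UDP-glycosyltransferases, 10 were tested, with differences from -4.27 points for UGT3A2 to -56.0 for UGT1A1. The median over the 10 was -21.0 points, where that of all tested genes was -4.84. Of the 10, 9 were called lower with the EZH2 inhibitor, where 15.6% of all tested genes were called lower. These 9 are the UGT1A genes of chromosome 2, which share their last exons, so they are close to a single observation. UGT1A1, the bilirubin-conjugating enzyme, averaged 14.6% ± 14.7 with the inhibitor and 70.6% ± 21.9 in the 8 libraries without (SD, n = 8 each), a difference of -56.0 points (limma adjusted p = 0.00225). UGT1A3 averaged 37.9% ± 15.1 with the inhibitor and 64.6% ± 13.1 without it (limma adjusted p = 0.0219). UGT1A1 was also called between combo and P38i, at 13.6% ± 18.6 in combo against 77.5% ± 21.1 in P38i (SD, n = 4 each, limma adjusted p = 0.0274). UGT3A2 was almost fully covered, at 91.1% ± 5.49 with the inhibitor and 95.4% ± 1.98 without it, and did not pass (limma adjusted p = 0.126). UGT3A1 averaged 95.7% and lay above the filter, and UGT8 had no island. The 7 genes that supply UDP-glucuronic acid or remove glucuronides, UGP2, UGDH, SLC35D1, GUSB, ABCC2, ABCC3 and ABCC4, were at 0 in all 16 libraries.

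Of 12 sulfotransferases, whose enzymes compete with UGT enzymes for steroids and phenols, 6 were tested and 1 was called lower, a share near the 15.6% of all tested genes. That gene, SULT1B1, lies next to the cluster and averaged 5.27% ± 5.87 with the EZH2 inhibitor and 22.5% ± 13.2 in the 8 libraries without (SD, n = 8 each, limma adjusted p = 0.0261). Its neighbour SULT1E1, the oestrogen sulfotransferase, averaged 10.5% ± 7.72 with the inhibitor and 16.0% ± 9.07 without it and did not pass (limma adjusted p = 0.362). The most covered were elsewhere. SULT1C2 averaged 82.3% over the 16 libraries and SULT2A1 74.2%, and neither passed (limma adjusted p = 0.325 and 0.785). SULT2A1 was higher with the inhibitor, by 1.67 points. SULT1C3 averaged 97.6% and lay above the filter. Of 15 transcription factors reported to regulate UGT2 genes, 7 were tested and 1 was called lower, again near the 15.6% of all tested genes. The median difference of the 7 was -5.65 points, near the -4.84 of all tested genes. NR1H4, the bile acid receptor FXR, averaged 89.9% ± 4.17 with the inhibitor and 95.9% ± 2.70 without it (limma adjusted p = 0.0146), and it also passed in EPZ against control at -8.45 points (limma adjusted p = 0.0433). HNF4A averaged 68.3% over the 16 libraries, FOXA1 56.6% and FOXA2 33.0%, and none of these passed. Of the 3 tested hepatocyte markers, ALB passed, at 23.6% ± 9.29 with the inhibitor and 55.6% ± 22.05 without it (limma adjusted p = 0.0157).

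Genes beside the cluster had lower coverage with the EZH2 inhibitor too. Within 1 Mb there were 29 protein-coding genes, of which 21 were tested. Their differences ran from -0.495 points for OPRPN to -43.9 for CABS1. The median was -21.8 points, where that of all tested genes was -4.84. Of the 21, 12 were called lower with the EZH2 inhibitor, where 15.6% of all tested genes were called lower. CSN1S1 among the 12, and STATH and CSN3 among the others, passed the filter only through the libraries without the inhibitor, so the count and median are a description. TMPRSS11B, a membrane serine protease of epithelia on the left flank, averaged 16.7% ± 11.9 with the inhibitor and 55.9% ± 19.4 in the 8 libraries without (SD, n = 8 each, limma adjusted p = 0.00509). AMTN, an enamel-matrix gene on the right flank, averaged 27.3% ± 14.7 with the inhibitor and 64.8% ± 13.6 without it (limma adjusted p = 0.00408). CABS1, a testis gene, averaged 19.0% ± 22.8 with the inhibitor and 62.8% ± 8.30 without it (limma adjusted p = 0.00377). SMR3A, a salivary gene, averaged 22.2% ± 26.7 with the inhibitor and 60.4% ± 22.9 without it (limma adjusted p = 0.0454). In EPZ against control TMPRSS11B and AMTN passed, in combo against control and in combo against P38i CABS1 passed, and in the other comparisons of treatments none of the 21 passed. The test of cluster genes against flanking genes was not made.

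Genes elsewhere whose coverage followed that of the cluster most closely over the 16 libraries were PDE4B, a cyclic AMP phosphodiesterase (Pearson r = 0.96), IQCM (0.96), FOLH1, prostate-specific membrane antigen (0.96), SGCZ, a sarcoglycan (0.95) and ARHGAP15 (0.95). They were the highest of 4075 tested genes compared, whose median r was 0.38, and all values come from the same 16 island lists, whose total length varied. FOLH1 averaged 33.7% ± 6.75 with the EZH2 inhibitor and 65.2% ± 13.2 without it, and IQCM 9.67% ± 2.66 with it and 25.1% ± 6.33 without it (SD, n = 8 each). Among the members, the r with cluster coverage ran from 0.53 for UGT2B28 to 0.88 for UGT2A2, where each member is part of the cluster.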

How the data were processed

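H3K27me3 ChIPmentation libraries of MDA-MB-231 cells (16, in 4 groups of 4) were analysed, and 16 IgG libraries were not analysed here. Per the submitters' processing notes, the authors used SICER, an island caller, and build hg38, with Bowtie2 2.3.4.1, SAMtools 1.2, bedtools 2.28.0, Picard, FastQC, cutadapt and Trim Galore. The sources used here state neither the order of steps nor the version and settings of SICER. The deposited lists hold no unit other than base position: where each island starts and where it stops, on windows of 200 bp, with no count, score or p-value. Depth and the flow cell of each library are unknown.

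From the lists, percent covered was computed for genes of the RefSeq table (span with 2.5 kb on each side), for bins of 10 kb and for the cluster, on chromosomes 1 to 22 and X. A check with bedtools 2.31.1 over 500 genes gave a largest difference of 0. Genes (4105; 15518 lay below and 351 above) and bins with a mean of 5 to 95% over 16 libraries were fitted in limma 3.58.1 (R 4.3.3, trend and robust), with 7 comparisons, each with Benjamini-Hochberg adjustment over all features and a threshold of 0.05. The fit was run on simulated data in which only genes of intermediate coverage were changed. Detection of changes in genes as sparsely covered as the members was not tested. Sequences came from RefSeq promoters of GRCh38.p14. Tables and figures were made in Python 3.11.15 with pandas 2.3.3, numpy 2.4.6 and matplotlib 3.10.9.

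The members, gene lists and tests were chosen with earlier results of these data known. All 10 members are named. Up to 4 genes are named per list, those past the threshold first by size of difference, otherwise the most covered, together with members that lay outside the filter. SULT1E1 is named as a neighbour of the cluster. The 5 genes most like the cluster lay over 2 Mb away. Alternatives were the arcsine scale, no flank or 10 kb, islands of at least 2 kb, gaps of up to 5 kb bridged, lists of equal length, covered length as a covariate, bins of 5 and 20 kb, no filter, the groups of a comparison alone, a replicate block, each library left out and, added after seeing the data, the libraries covering at least 500 Mb and the ratio to genome coverage.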

Additional observations from a re-analysis of the deposited data

Results flagged for a closer look

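In 4 of 41 groups of 4 libraries examined, 1 library stood far from the other 3. For independent, normally spread values, chance alone flags about 1 in 20 such groups, here 2.05. A group whose other 3 libraries are tied is flagged whatever the size of the gap. This held for UGT2B10, UGT2B11 and the island count below, so the number flagged is not read against 2.05. UGT2B10 was covered 19.97% in combo replicate 3, against 0 in the other combo libraries. UGT2B11 was covered 35.3% in EPZ replicate 4, against 0 in the other EPZ libraries. UGT2A2 was covered 16.0% in EPZ replicate 4, against 0 to 1.07% in the others. Combo replicate 2 had 22 islands in the cluster, against 18 in each of the other combo libraries.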

How the results depend on the processing

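Depth is unknown, and 4 libraries per group with overlapping values limit what can be called. For the EZH2 inhibitor, 4 genes were called; this became 2 with covered length as covariate, with a flank of 10 kb, with islands of at least 2 kb and with libraries covering at least 500 Mb, and 0 with lists of equal covered length, where 2 members could be tested. It ranged from 1 to 5 when single libraries were left out. Of alternatives that could test each gene, UGT2B7 kept its call in 17 of 17, UGT2A2 in 24 of 25, UGT2B28 in 17 of 24 and UGT2A1 in 8 of 25. UGT2B7 averaged 5.20% over the 16 libraries, close to the filter at 5%. Apart from the fit with no filter, its 17 settings are those where libraries without the inhibitor carried it past the filter. The 17 of 17 is thus not a measure of how firm its call was. The 2 bins called became 4 with bins of 20 kb, 0 with bins of 5 kb, covered length as covariate or lists of equal covered length, and 1 with islands of at least 2 kb or libraries covering at least 500 Mb, and ranged from 0 to 5 with single libraries left out. Combo against control called 0 genes, but 1 with the covariate (UGT2B28) and 2 (UGT2A1 and UGT2A2) with libraries covering at least 500 Mb. Leaving out single libraries gave 0 to 2 genes in EPZ against control, 0 to 2 in combo against control, 0 to 1 in combo against P38i, and 0 to 2 bins in EPZ against control. Lists of equal covered length drop the narrowest islands of the longer lists, and islands in the cluster were narrow. With them, the difference in cluster coverage was -2.80 points for combo, -2.71 for EPZ and -1.29 for the EZH2 inhibitor, and that of combo against P38i turned to 0.129. Combo against P38i also turned to 2.98 (covariate) and 0.555 (without P38i replicate 1; range with single libraries left out -7.74 to 0.555) for UGT2B10, and to 0.934 (covariate) and 2.12 (equal length) for UGT2B11. The cause of these changes was not tested, beyond the fewer genes or libraries that some settings leave.

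With replicate number as a block, 3 genes and 1 bin were called for the EZH2 inhibitor and 0 in the other comparisons. Same-numbered libraries correlated at -0.151 to 0.178 and others at -0.204 to 0.163, and 3 of 16 libraries correlated best with their own number, so the numbers are not shown to pair the libraries.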
